A study of Mus musculus with 6 samples.

Results

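The nuclear-encoded genes of the mitochondrial respiratory chain were taken from bulk RNA-seq of sorted splenic γδ T cells of the mouse. They were the genes of the count table whose symbols begin with Nduf, Uqcr, Atp5, Cox4, Cox5, Cox6, Cox7 or Cox8, plus Sdha, Sdhb, Sdhc and Sdhd, and they numbered 93 of 19390 gene symbols. The pseudogene symbol Ndufab1-ps was left out (1 gene), and 0 genes were left out for having no counts. By complex the members were 48 for complex I, 4 for complex II, 8 for complex III, 16 for complex IV and 17 for complex V. Ndufa4, which was first described in complex I and is now known as a complex IV subunit, was placed in complex IV. The 48 genes of complex I held 8 assembly factors (symbols beginning with Ndufaf), which help to build the complex and are not part of the finished enzyme.

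A pair of genotypes was compared, with 3 libraries each, from mice 6 weeks of age. The WT libraries were taken as USF3-f/f, which carry the floxed allele without a recombinase, and the KO libraries as USF3-f/f; CD2-cre, which carry the same floxed allele and a Cre driven by the lymphoid CD2 promoter. All 6 libraries thus share the floxed allele, and Cre differs between the groups along with the deletion. The strain and the exons that the floxed allele loses were not given in the sources used here, and CD2-cre acts in lymphocytes other than γδ T cells too. The study asked what the transcription factor USF3 does in γδ T cells. Neither the titles nor the design text says whether each library came from a separate mouse, so the p-values measure the spread between these libraries, which may be technical.

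The respiratory chain passes electrons from NADH (complex I) and succinate (complex II) through ubiquinone, complex III and cytochrome c to oxygen at complex IV, and complex V uses the resulting proton gradient to make ATP. Most of its subunits are encoded in the nucleus and imported, while a few core subunits of complexes I, III, IV and V are encoded in mitochondrial DNA, so each of those complexes is built from products of both genomes. In T cells the chain is known for supporting resting survival and for the rise in energy and precursor demand after activation.

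The targeted gene was checked first. The WT libraries held 2499, 2527 and 2593 counts of Usf3 and the KO libraries 2532, 2360 and 2348, and KO1 lay between WT2 and WT3. The fitted log2 fold change of Usf3 was −0.08 ± 0.04 (SE, n = 3 per group) with an adjusted p of 0.261 (edgeR's quasi-likelihood test with Benjamini-Hochberg adjustment over all tested genes). The counts thus did not separate the libraries by label, and the groups are called here by their labels, WT and KO. A count over the whole gene does not check a deletion of part of it. Each library held 34644862 to 35806402 counts, and the spread between libraries of a group beyond counting error was 4.16% (edgeR's biological coefficient of variation). All 8 T cell markers looked for were found (summed level 3730 to 3760 CPM in WT and 3540 to 3670 in KO), and the γδ T cell receptor genes were not analysed here. Among these T cell markers Cd3g (382 CPM in WT, 340 in KO), Cd3d (286 and 263), Cd3e (346 and 328) and Cd2 (177 and 165) fell. Cd247, Lck, Thy1 and Zap70 were not called. The 35 markers found for B cells, monocytes and macrophages, dendritic cells, neutrophils, erythroid cells and platelets together summed to 134 to 137 CPM in WT and 105 to 118 CPM in KO, and none of them was at 0 throughout. These lists went both ways: the dendritic cell list summed to 97.7 to 102 CPM in WT and 66.3 to 78.5 in KO, the monocyte and macrophage list to 7.31 to 9.92 and 6.03 to 6.77, the B cell list to 6.88 to 7.27 and 5.95 to 7.91, the erythroid list to 17.4 to 21.0 and 24.1 to 27.4, the platelet list to 0.863 to 0.91 and 1.25 to 1.51, and the neutrophil list to 0.0863 to 0.142 and 0.0854 to 0.144. In the dendritic cell list Bst2 (83.7 CPM in WT, 64.2 in KO), Batf3 (8.07 and 4.24) and Itgax (7.21 and 2.35) fell. Xcr1 (0.28 and 0.77) and Zbtb46 (0.62 and 0.82) were not called, and Flt3 was below the low-count filter. In the erythroid list Car2 rose (19.36 and 25.25 CPM), and Alas2 and Hba-a1 were below the filter. NK cell markers (5 of 5 found), which γδ T cells can also express, summed to 381 to 384 CPM in WT and 569 to 582 CPM in KO. Within that list Eomes rose (307 to 499.8 CPM), Klrb1c was not called (73.8 and 76.3 CPM) and Ncr1 fell (1.85 to 0.965 CPM, adjusted p = 0.0398, edgeR with Benjamini-Hochberg adjustment). Of the αβ T cell list 4 of 7 were read, without the receptor genes, and summed to 84.2 to 85.2 and 103 to 108 CPM. Of these Cd8a rose (66.1 to 86.9 CPM), while Cd8b1 (18.1 and 17.8 CPM) and Cd4 (0.522 and 0.463 CPM) were not called and Cd40lg was below the filter. The part of these differences in the results below was not tested. In bulk RNA, fewer cells of a type and less RNA per cell cannot be told apart.

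Of the 8 called members with a promoter in the table, 5 are shown: the 4 that held a match to a motif searched, all of which rose, and the 1 that fell. USF factors are known to bind the E-box. Promoter sequences were matched by symbol for 76 of the 93 members and are those of RefSeq on GRCm38.p6, running from 250 bases before to 50 bases after the gene's start and printed on the gene's strand. Capitals mark matches, on either strand, to the E-box CACGTG, the NRF1 motif GCGCANGCG, the ETS motif CCGGAAG, which GABP binds, and the YY1 motif AAGATGG. NRF1, GABP and YY1 are known regulators of respiratory chain genes. The sequences are Sdha (chr13:74350191-74350490, minus strand), Uqcrc1 (chr9:108936398-108936697, plus strand), Uqcrh (chr4:116075021-116075320, minus strand), Atp5g3 (chr2:73911277-73911576, minus strand), all higher in KO, and Ndufv3 (chr17:31519865-31520164, plus strand), the 1 member that was lower.
Sdha: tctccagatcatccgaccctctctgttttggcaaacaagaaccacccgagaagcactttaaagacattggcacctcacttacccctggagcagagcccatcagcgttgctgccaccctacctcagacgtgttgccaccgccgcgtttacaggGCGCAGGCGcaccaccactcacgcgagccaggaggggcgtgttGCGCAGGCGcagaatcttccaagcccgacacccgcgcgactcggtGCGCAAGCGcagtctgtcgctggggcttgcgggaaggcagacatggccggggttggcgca
Uqcrc1: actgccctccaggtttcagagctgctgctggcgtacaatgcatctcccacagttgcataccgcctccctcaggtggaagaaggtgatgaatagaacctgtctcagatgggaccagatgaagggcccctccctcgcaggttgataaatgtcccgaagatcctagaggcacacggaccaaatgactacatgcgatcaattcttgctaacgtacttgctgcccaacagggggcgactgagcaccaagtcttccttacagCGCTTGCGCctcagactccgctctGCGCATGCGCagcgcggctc
Uqcrh: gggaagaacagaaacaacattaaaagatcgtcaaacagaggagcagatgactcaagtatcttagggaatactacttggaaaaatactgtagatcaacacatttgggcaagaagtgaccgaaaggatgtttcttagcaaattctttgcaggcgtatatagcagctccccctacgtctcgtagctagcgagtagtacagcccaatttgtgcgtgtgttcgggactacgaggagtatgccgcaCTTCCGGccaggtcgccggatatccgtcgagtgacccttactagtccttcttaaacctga
Atp5g3: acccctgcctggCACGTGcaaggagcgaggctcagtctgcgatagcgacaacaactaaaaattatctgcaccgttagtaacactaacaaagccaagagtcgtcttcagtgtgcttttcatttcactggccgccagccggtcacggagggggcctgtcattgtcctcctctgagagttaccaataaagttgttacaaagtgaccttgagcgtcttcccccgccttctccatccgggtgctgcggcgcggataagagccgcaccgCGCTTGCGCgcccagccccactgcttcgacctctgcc
Ndufv3: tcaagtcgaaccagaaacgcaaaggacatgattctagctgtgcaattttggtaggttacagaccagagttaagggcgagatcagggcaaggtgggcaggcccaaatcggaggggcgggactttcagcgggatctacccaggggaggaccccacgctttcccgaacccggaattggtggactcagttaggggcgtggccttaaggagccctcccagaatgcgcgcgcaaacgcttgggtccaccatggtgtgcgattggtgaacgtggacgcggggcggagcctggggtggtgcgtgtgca

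Sdha held 3 NRF1 matches, and Uqcrc1 held 3, of which 2 overlap each other on opposite strands. Atp5g3 held 1 NRF1 match and 1 E-box, Uqcrh held 1 ETS match, and Ndufv3 held none of the motifs in this window. Atp5b, Atp5d and Ndufa4, which rose and are not printed, held none of them either, so called members with and without a match were found among those that rose. None of the matches printed overlaps a match to another motif. Of the 8 called members with a promoter in the table, 1 held an E-box, 3 an NRF1 motif, 1 an ETS motif and 0 a YY1 motif. Among the 76 members, 6 promoters (7.89%) held the E-box, beside 8.09% of the 27025 genes with a promoter and 11.36% of the 10101 tested genes with one. The 6 were Atp5g1, Atp5g3, Atp5l, Atp5pb, Ndufa7 and Ndufv1. The NRF1 motif stood in 22 member promoters (28.95%), beside 7.03% of all genes and 15.0% of the tested genes. The ETS motif stood in 19 (25.0%), beside 9.93% and 20.51%, and the YY1 motif in 12 (15.79%), beside 7.28% and 8.54%. A match is a description of the letters, not a bound site.

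The level of each gene was compared between genes only per length, on the deposited FPKM scale, which divides counts by the library total and by 1 fixed length per gene. The chain was expressed in every complex, and its most abundant members were those of complex V and complex IV. Atp5b, the catalytic β subunit of ATP synthase, had the highest level, 733 ± 15.3 FPKM (SD, n = 3) in WT, followed by Atp5a1, its α subunit, at 429 ± 2.28 FPKM. Complex V ended with Atp5j, a peripheral stalk subunit counted over 1690 bp, at 82.7 ± 2.10 FPKM, and Atp5g1 at 91.9 ± 2.96 FPKM. In complex IV the 12 genes above 5 FPKM ran from 61.4 FPKM (Cox5a, counted over a length of 3153 bp) to 391 ± 5.94 FPKM (Cox4i1, the widely expressed form of subunit 4), with a median of 269 FPKM. Cox5b was next to Cox4i1 at 328 ± 5.06 FPKM.

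Complexes II and III were at middle levels. In complex II the WT levels were 137 ± 1.73 FPKM for Sdhb, 104 ± 1.12 for Sdhd, 104 ± 0.438 for Sdha and 71.6 ± 1.13 for Sdhc, and Sdha and Sdhd did not differ beyond their spread. In complex III they ran from 60.1 ± 0.711 FPKM (Uqcrq) and 100 ± 1.86 (Uqcrc2) to 137 ± 1.67 (Uqcr10) and 220 ± 14.0 (Uqcrh). Uqcrq was counted over a length of 1525 bp, and Ndufa11, below, over 2661 bp. The 37 complex I subunits above 5 FPKM had a median of 72.4 FPKM and ran from 16.4 FPKM (Ndufa11) to 170 ± 8.02 (Ndufb7) and 175 ± 5.41 (Ndufa3), a pair whose levels did not differ beyond their spread. The 8 complex I assembly factors were lower, from 1.90 ± 0.175 FPKM (Ndufaf6) to 15.9 (Ndufaf2), with a median of 8.88 FPKM.

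**Figure D1:**
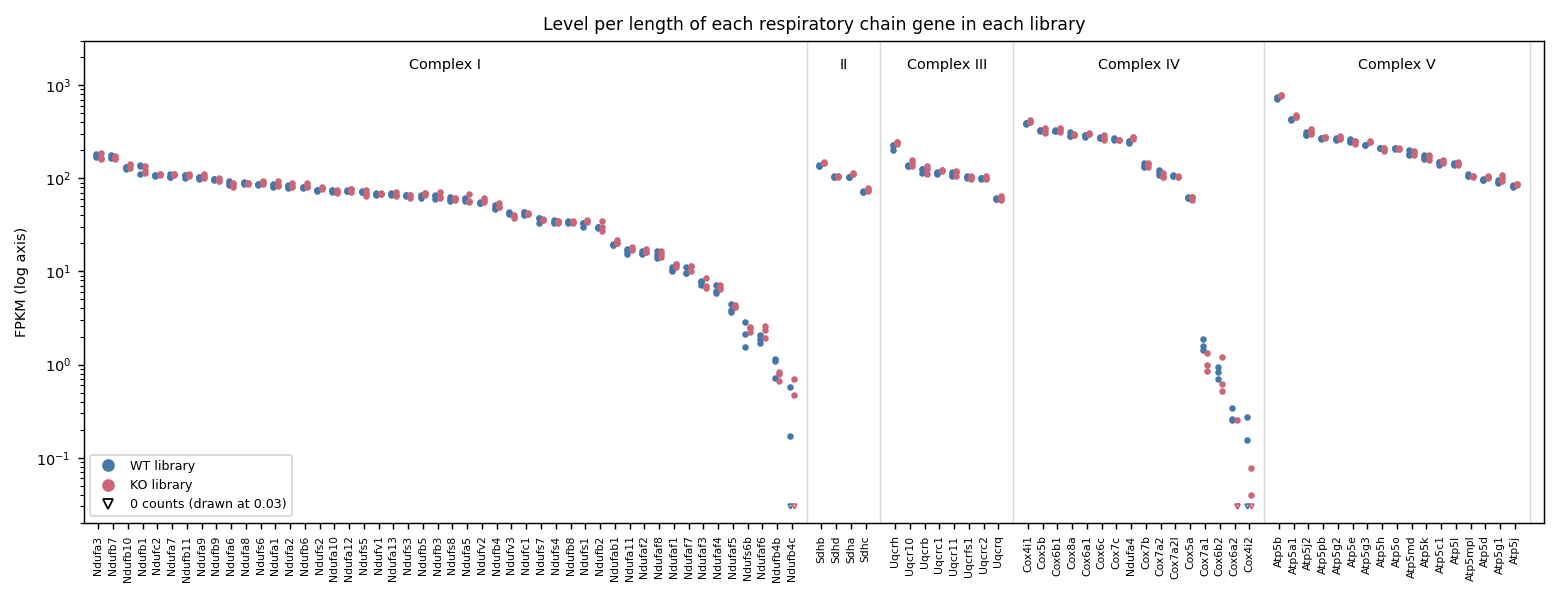
Deposited FPKM (log axis) of each of the 93 genes in each library, ordered within each complex by the WT mean, with WT libraries in blue and KO libraries in red. Open triangles mark libraries with 0 counts. Atp5b leads at a WT mean of 733 FPKM, and the lowest members are tissue-restricted isoforms and near copies.

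Isoforms known from other tissues were near 0. Cox4i2, the lung form of subunit 4, was counted 4, 0 and 7 times in WT and 1, 2 and 0 times in KO (0.142 FPKM in WT beside 391 for Cox4i1). Cox6a2, the heart and muscle form, was counted 6, 6 and 8 times in WT and 0, 6 and 0 times in KO (0.287 FPKM in WT beside 287 for Cox6a1). Cox7a1, another heart and muscle form, was counted 31, 23 and 26 times in WT and 16, 14 and 21 times in KO (1.64 FPKM in WT beside 115 for Cox7a2). The groups did not overlap for Cox7a1, and its log2 fold change of −0.65 ± 0.39 did not pass the test (adjusted p = 0.299 by edgeR with Benjamini-Hochberg adjustment), although both fits of the deposited FPKM with limma called it (adjusted p of 0.0415 and 0.0397). Cox6b2, the testis form, had 11 to 26 counts per library (0.826 FPKM in WT beside 325 for Cox6b1). Of the near copies of complex I genes, Ndufb4b stood at 0.984 FPKM and Ndufb4c at 0.251 beside 49.1 for Ndufb4, and Ndufs6b at 2.17 beside 86.6 for Ndufs6. The counting of reads shared by such copies was not given in the sources used here, nor was it for the processed copies of small subunit genes such as Uqcrh and Ndufa4. Cox4i2, Cox6a2 and Ndufb4c were below the low-count filter, which left 90 members tested.

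Of the 90 tested members, 8 rose in KO (8.89%, beside 7.23% of the 12810 genes tested, by edgeR with Benjamini-Hochberg adjustment) and 1 fell (1.11%, beside 10.1%). In either direction 9 of the 90 members were called, beside 17.3% of all tested genes, so the share of members called was below that of all genes, and the share that rose was near it. The members that rose were Sdha of complex II, Uqcrc1 and Uqcrh of complex III, Ndufa4 of complex IV, and Atp5a1, Atp5b, Atp5d and Atp5g3 of complex V, and Ndufv3 of complex I fell. DESeq2 and limma-voom called the same 9 members. The changes were small. The rises ran from 5.37% to 9.36%, and Ndufv3 fell by 8.96%. In 16 members (17.8%, beside 15.5% of all tested genes) every KO library was above every WT library, and in 2 (2.22%, beside 16.7%) every KO library was below. The median log2 fold change of the tested members was 0.02, beside 0.0014 over all tested genes. Of the members 57 were positive and 33 negative, and 50.4% of all tested genes were positive. Without KO3 that median was 0.0024 and without KO2 it was 0.05. The counts of all members made up 1.10%, 1.08% and 1.10% of the WT libraries and 1.13%, 1.11% and 1.16% of the KO libraries.

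**Figure D2:**
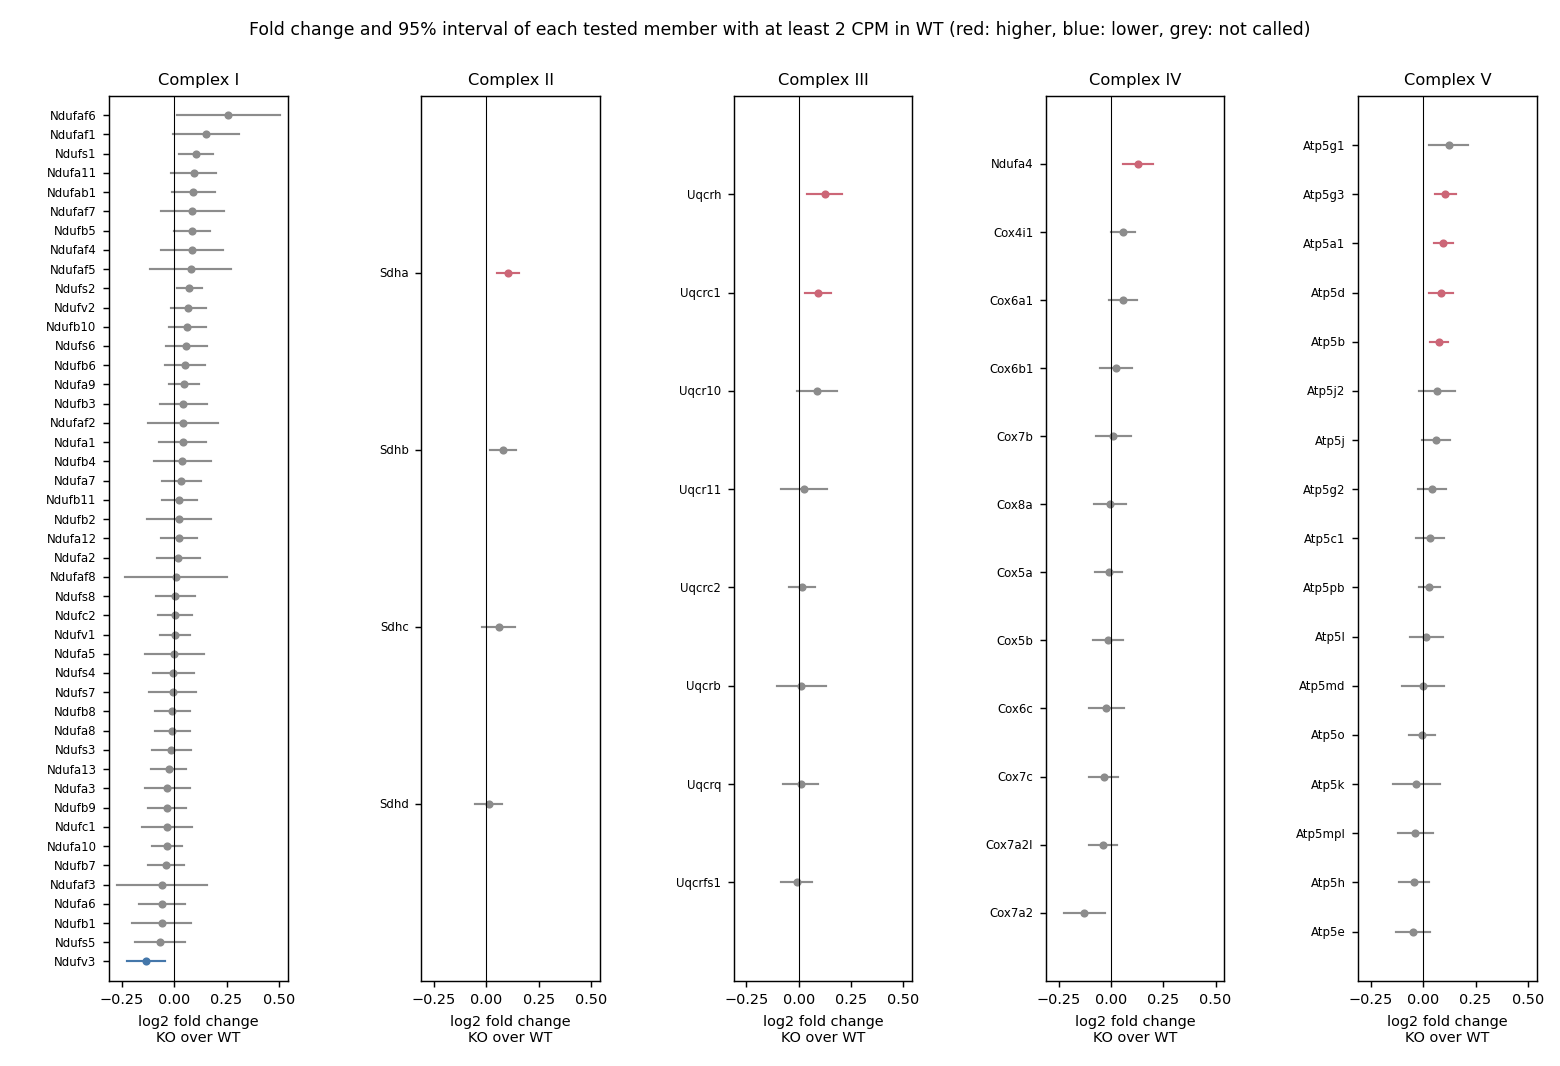
Log2 fold change of KO over WT for the 86 tested members with at least 2 CPM in WT, by complex, with 95% intervals of the edgeR quasi-likelihood fit. Red marks a member that rose, blue one that fell and grey one that did not pass the test. Most points lie near 0, with the called members of complexes II to V to the right of it and Ndufv3 to the left.

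Complex I, the NADH dehydrogenase that feeds most electrons into the chain, had 0 members higher and 1 lower among 47 tested. The shares were 0% and 2.13%, beside 7.23% and 10.1% of all tested genes. An unadjusted p under 0.05 (edgeR) was found in 4 of the 47, beside 3645 of the 12810 genes tested. Ndufv3, an accessory subunit of the NADH-oxidizing arm, had 69.2, 65.8 and 67.1 CPM (counts scaled to a common library size) in WT and 60.7, 59.7 and 63.7 CPM in KO. All 3 KO libraries were below all 3 WT libraries. The log2 fold change of Ndufv3 was −0.14 ± 0.04 (adjusted p = 0.031, edgeR with Benjamini-Hochberg adjustment), and leaving out WT1, WT3, KO1 or KO2 ended the call (adjusted p of 0.148, 0.0829, 0.109 and 0.101). The 7 nuclear-encoded core subunits, which carry the flavin and iron-sulfur clusters, had 0 called, beside 17.3% of all tested genes. Of the 7, 2 had an unadjusted p under 0.05 by edgeR. Ndufs1, the largest core subunit, had 122, 121 and 110 CPM in WT and 128, 123.3 and 127 in KO. The groups did not overlap, yet Ndufs1 did not pass the threshold (log2 fold change 0.10 ± 0.04, adjusted p = 0.075), and it did so without KO2 (adjusted p = 0.0392), with upper-quartile scaling (0.0461) and without a low-count filter (0.038).

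The other complex I subunits were close to their WT levels. The 30 accessory subunits had a median log2 fold change of 0.01, and the summed level of complex I was 2638 ± 7.16 CPM in WT and 2674 ± 78.4 CPM in KO, 1.37% higher in KO. Ndufa3, the most abundant per length, had a log2 fold change of −0.03 ± 0.05, and Ndufb7, the next, one of −0.04 ± 0.04. For Ndufa3 the interval of the change ran from −9.28% to 5.33%. The 8 assembly factors had 0 called, beside 17.3% of all tested genes, and 1 at an unadjusted p under 0.05 by edgeR. Their median log2 fold change was 0.08, with 7 of the 8 positive, beside 50.4% of all tested genes. Ndufaf6, an assembly factor with few reads, had 8.21, 8.94 and 7.45 CPM in WT and 10.04, 8.21 and 11.2 CPM in KO. Its groups overlapped, and its log2 fold change of 0.26 ± 0.12 did not pass the test (adjusted p = 0.148), but passed it without KO2 (0.0204). Ndufaf1, which acts early in assembly, had a log2 fold change of 0.15 ± 0.08 (adjusted p = 0.193).

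Complex II, succinate dehydrogenase, is the one complex with all its subunits encoded in the nucleus. All 4 log2 fold changes were positive, beside 50.4% of all tested genes, and 1 of the 4 rose (25%, beside 7.23%). Sdha, the flavoprotein that oxidizes succinate, had 296, 299 and 297 CPM in WT and 314, 315 and 327 CPM in KO. Each KO library was above each WT library by more than the whole WT range. The log2 fold change of Sdha was 0.10 ± 0.03 (adjusted p = 0.00708, edgeR with Benjamini-Hochberg adjustment). Sdhb, the iron-sulfur subunit, had 150, 147 and 148 CPM in WT and 156, 156 and 159 in KO. The groups of Sdhb did not overlap, and its log2 fold change of 0.08 ± 0.03 did not pass the threshold (adjusted p = 0.0772). Upper-quartile and total-count scaling carried Sdhb past it (both 0.045), as did both FPKM fits (0.0255 and 0.0254). The membrane anchors Sdhc and Sdhd had log2 fold changes of 0.06 ± 0.04 and 0.01 ± 0.03, with intervals from −1.37% to 10.1% and from −3.77% to 5.35%, and their groups overlapped. Summed over the complex, the level was 672 ± 0.897 CPM in WT and 707 ± 13.7 CPM in KO.

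Complex III, which passes electrons from ubiquinol to cytochrome c, had 2 of 8 members higher (25%, beside 7.23% of all tested genes). Uqcrc1, a core protein, had 195, 188 and 184 CPM in WT and 201, 202 and 200 CPM in KO, with no overlap. The log2 fold change of Uqcrc1 was 0.09 ± 0.03 (adjusted p = 0.0357, edgeR with Benjamini-Hochberg adjustment), and leaving out WT2, WT3, KO1 or KO2 ended the call (adjusted p of 0.11, 0.164, 0.102 and 0.0711). Its partner core protein, Uqcrc2, had a log2 fold change of 0.01 ± 0.03. Uqcrh, the hinge protein that contacts cytochrome c1, had 126, 112 and 124 CPM in WT and 134, 128 and 132 CPM in KO. WT2 was the low library of Uqcrh, and without it the log2 fold change went from 0.13 ± 0.04 (adjusted p = 0.0334) to 0.08 (adjusted p = 0.234). Without KO1 the adjusted p of Uqcrh was 0.137, and in both FPKM fits it was 0.0667 and 0.0662. Uqcr10, a small subunit, overlapped between the groups (0.09 ± 0.05, adjusted p = 0.234) and was called without KO2 (0.0487), and Uqcrq was at 0.01 ± 0.04.

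Complex IV, cytochrome c oxidase, had 1 of 14 tested members higher (7.14%, beside 7.23% of all tested genes), and its median log2 fold change was −0.01, or 0.02 without KO2. Ndufa4 had 126, 120 and 126 CPM in WT and 138, 131 and 138 CPM in KO, so each KO library was above each WT library. Its log2 fold change was 0.13 ± 0.03 (adjusted p = 0.0107, edgeR with Benjamini-Hochberg adjustment), and leaving out WT2 or KO1 ended the call (adjusted p of 0.0769 and 0.0588). Cox7a2, a small subunit, had 87.2, 81.5 and 92.7 CPM in WT and 77.4, 77.2 and 84.7 CPM in KO. The groups of Cox7a2 overlapped, with a log2 fold change of −0.13 ± 0.05 (adjusted p = 0.0692). Cox7a2 passed the threshold without WT2 (0.0303), without KO3 (0.0045), with the length trend removed (0.0355) and without a low-count filter (0.0213), as well as with the replicate block (0.0431). The most abundant members per length, Cox4i1 and Cox5b, had log2 fold changes of 0.06 ± 0.03 and −0.02 ± 0.03, and neither passed the test. For Cox4i1 every KO library was above every WT library (302, 295 and 303 CPM against 305, 310 and 321 CPM).

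Complex V, the ATP synthase, had 4 of 17 members higher (23.5%, beside 7.23% of all tested genes) and 0 lower (beside 10.1%), and its summed level was 4845 ± 59.0 CPM in WT and 5056 ± 88.0 CPM in KO, 4.36% higher. Of the 5 subunits of F1, the catalytic head and its stalk, 3 rose (60%, beside 7.23% of all tested genes, in a group of few genes). Atp5a1 had 1050, 1046 and 1046 CPM in WT and 1100, 1106 and 1154 CPM in KO, and Atp5b had 1407, 1354 and 1384 CPM in WT and 1435, 1458 and 1475 CPM in KO. Neither gene's groups overlapped, and KO3 was the highest library for both. The log2 fold change was 0.10 ± 0.02 for Atp5a1 (adjusted p = 0.00238) and 0.08 ± 0.02 for Atp5b (adjusted p = 0.0115), both by edgeR with Benjamini-Hochberg adjustment. Atp5b was not called without WT2 (adjusted p = 0.0679). Atp5d, the δ subunit of the central stalk, had 204, 204 and 207 CPM in WT and 212, 221 and 220 CPM in KO. Its log2 fold change of 0.08 ± 0.03 (adjusted p = 0.0408) lost its call on leaving out any library but KO1 (adjusted p from 0.0542 to 0.122). The remaining F1 genes, Atp5c1 (γ) and Atp5e (ε), had log2 fold changes of 0.03 and −0.05 and were not called.

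The mature c subunit, which forms the ring that turns in the membrane, is encoded by several genes. Of the 3, 1 rose (33.3%, beside 7.23% of all tested genes). Atp5g3 had 320, 321 and 324 CPM in WT and 345, 343 and 350 CPM in KO. The KO libraries of Atp5g3 stood apart from the WT libraries by more than the range within either group, with a log2 fold change of 0.11 ± 0.02 (adjusted p = 0.0031, edgeR with Benjamini-Hochberg adjustment). Atp5g1 had 88.9, 92.1 and 95.4 CPM in WT and 101, 93.3 and 107 CPM in KO. The low KO library of Atp5g1 was KO2, which fell inside the WT range, and the gene did not pass the test (0.12 ± 0.04, adjusted p = 0.0642). Atp5g1 passed it without KO2 (0.00337), with upper-quartile and total-count scaling (0.0441 and 0.0407), without a low-count filter (0.0199) and with the length trend removed (0.0377). Atp5g2 had a log2 fold change of 0.04 (adjusted p = 0.434). Of the summed FPKM of the 3 genes, Atp5g1 made up 15.8 ± 0.331% in WT and 16.2 ± 0.771% in KO, Atp5g2 44.9 ± 0.371% and 43.7 ± 0.829%, and Atp5g3 39.3 ± 0.427% and 40 ± 0.770%. The other 9 genes of complex V include those of the peripheral stalk and membrane part, such as Atp5j (0.06 ± 0.03, adjusted p = 0.215 by edgeR). These 9 had 0 called (beside 17.3% of all tested genes), 0 at an unadjusted p under 0.05 and a median log2 fold change of −0.0002.

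**Figure D3:**
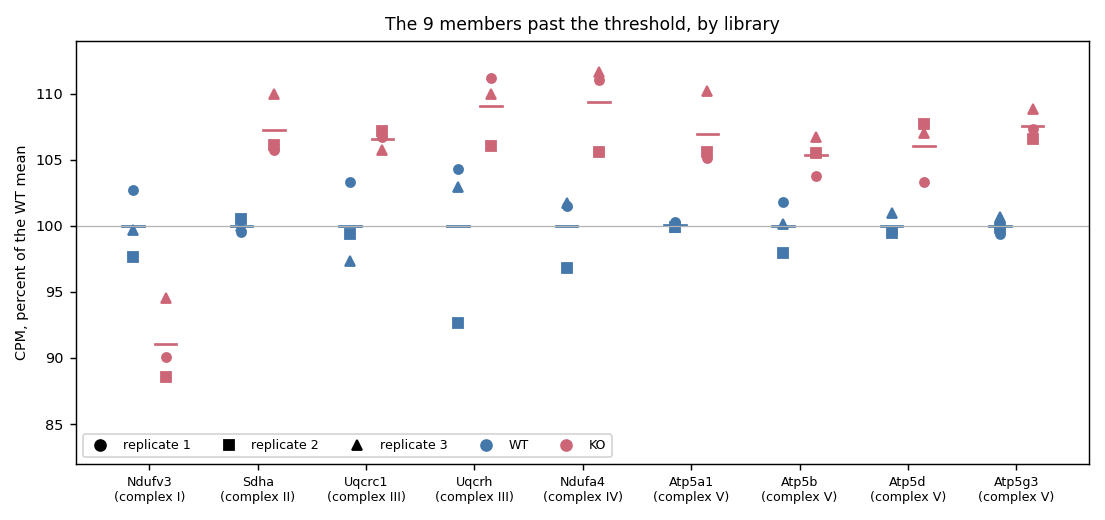
CPM of the 9 called members in each library as a percent of the gene's WT mean, with WT in blue, KO in red, a symbol for each replicate number and a bar at each group mean. The KO libraries of 8 genes lie above all WT libraries and those of Ndufv3 below. WT2 is the low WT library for Uqcrh, at 92.7%.

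The calls on Sdha, Atp5a1 and Atp5g3 held under all 19 alternatives tried, and each of the other 6 called members lost its call under at least 1 alternative. The intervals were narrow for most members. Of the 90 tested members, 45 had an interval that stayed within a 10% rise and the fall of the same fold, and 82 stayed within 20% on the same scale. The 4 with an interval beyond 50% were Cox6b2, Cox7a1, Ndufb4b and Ndufs6b, all under 2 CPM. Ndufb4b had a log2 fold change of −0.37 ± 0.45 and Ndufs6b one of 0.15 ± 0.33.

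The members moved with particular libraries as well as with the label. KO3 was the highest of the 6 libraries for 48 of the 90 tested members, while KO2 was the lowest for 25 and WT2 for 27. The median deviation of the members from the WT mean was 0.01, −0.01 and 0.07 (log2) in KO1, KO2 and KO3, so KO2 and KO3 lay on either side of 0. Many of the members are short. Split at their median length of 820 bp, the 45 shorter members had deviations of −0.0032, −0.04 and 0.05 in KO1, KO2 and KO3, and the 493 other tested genes of such length had 0.0082, −0.04 and 0.05. The KO libraries thus took the same order in short members and in other short genes. The 45 longer members had deviations of 0.03, 0.02 and 0.08, all above 0, beside −0.0019 to 0.0020 for the 12227 other longer genes. Of the shorter members 2 rose (4.44%, beside 4.06% of the other short genes) and 0 fell. Of the longer ones 6 rose (13.3%, beside 7.34% of the other longer genes) and 1 fell. In either direction 4.44% of the shorter and 15.6% of the longer members were called, beside 10.8% and 17.6% of those other genes. The part of length in the calls was not tested beyond a fit with the trend on length removed, which kept all 9 calls and added Atp5g1 and Cox7a2.

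**Figure D4:**
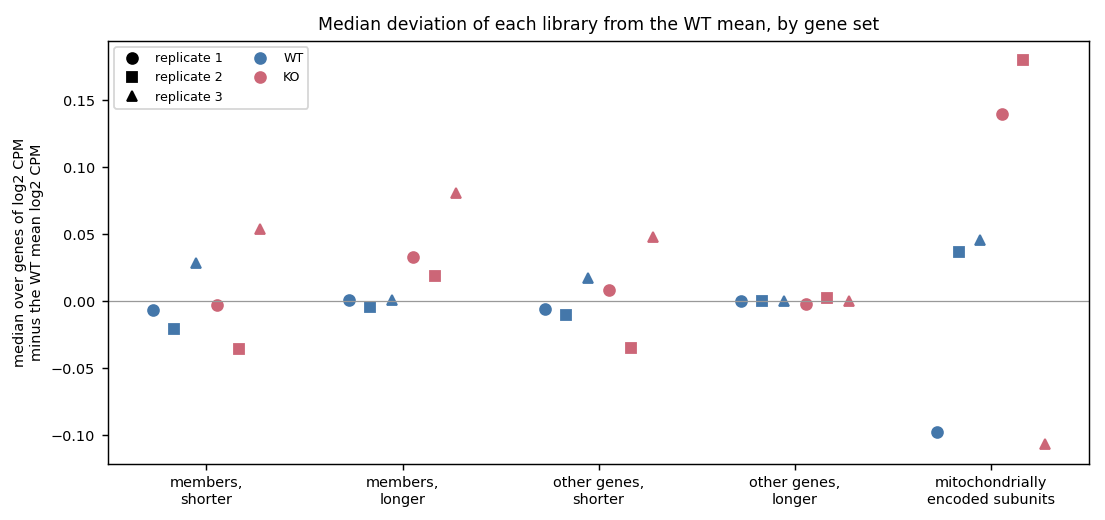
Median over genes of the log2 CPM of each library minus the WT mean log2 CPM, for shorter and longer members (split at 820 bp), for other tested genes of the same lengths, and for the 13 subunits encoded in mitochondrial DNA. KO3 is the highest and KO2 the lowest KO library in both short sets, and the order of these libraries turns round for the mitochondrially encoded subunits.

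The subunits encoded in mitochondrial DNA, which join the nuclear-encoded ones in complexes I, III, IV and V, had 1 of 13 higher (7.69%, beside 7.23% of all tested genes) and 0 lower. CYTB, cytochrome b of complex III, had 2325, 2457 and 2485 CPM in WT and 2695, 2744 and 2495 CPM in KO. Each KO library was above each WT library, KO3 barely so. The log2 fold change of CYTB was 0.13 ± 0.03 (adjusted p = 0.00202, edgeR with Benjamini-Hochberg adjustment), and DESeq2 did not call it (adjusted p = 0.0667). Levels were uneven among the 13 genes, with WT means of 7034 CPM for COX1, 18.6 for COX2, 11.8 for COX3 and 10.1 for ATP6. ATP8, ND3 and ND4L stood at 0.566, 0.827 and 1.97 CPM in WT, and the cause of these low counts was not tested. The 13 genes together reached 13856, 14858 and 14802 CPM in WT and 15881, 16143 and 14064 CPM in KO. KO3, the highest library for the nuclear-encoded members, was the lowest KO library here, below WT2 and WT3.

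The other genes of the pathway outside the symbol rule were read from 10 lists, of which 144 genes were tested. Usf3, the targeted gene, was counted among them, in the list for regulators of mitochondrial gene expression. By edgeR with Benjamini-Hochberg adjustment 6 rose and 5 fell (4.17% and 3.47%, beside 7.23% and 10.1% of all tested genes). Cyc1, the cytochrome c1 subunit of complex III that Uqcrh contacts, had 121, 121 and 124 CPM in WT and 140, 138 and 133 CPM in KO. Its groups were well apart, and its log2 fold change of 0.17 ± 0.03 (adjusted p = 0.000829) was larger than that of any called member. Of the other electron carriers and subunits, Aifm1, an NADH oxidoreductase needed for complex I biogenesis, rose (0.14 ± 0.05, adjusted p = 0.0444) and Gpd2, the mitochondrial glycerol-3-phosphate dehydrogenase, fell (−0.14 ± 0.04, adjusted p = 0.0238). When 1 library was left out, Aifm1 was called only without KO2 (adjusted p of 0.0778 to 0.204 without each of the others) and Gpd2 only without WT1 or KO3 (0.0506 to 0.176 without each of the others). DESeq2 did not call Aifm1 (0.0575).

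Of 24 complex IV assembly factors 0 rose and 2 fell (8.33%, beside 10.1% of all tested genes), which were Sco1 and Cox17. Sco1, which inserts copper into cytochrome c oxidase, had 31.8, 34.3 and 32.4 CPM in WT and 24.1, 23.5 and 22.9 CPM in KO. The KO levels of Sco1 were clear of the WT range, and its log2 fold change of −0.48 ± 0.06 (adjusted p = 1.95e-06, edgeR with Benjamini-Hochberg adjustment) was called under every alternative. Cox17, the chaperone that hands copper to Sco1, had 68.6, 64.9 and 71.4 CPM in WT and 61.3, 57.6 and 62.9 CPM in KO. The log2 fold change of Cox17 was −0.17 ± 0.05 (adjusted p = 0.0113), and it was not called without WT1, WT3 or KO2 (adjusted p of 0.0534, 0.0962 and 0.0524). Among the 14 tested nuclear-encoded members of complex IV, Ndufa4 was the 1 called (7.14%, beside 17.3% of all tested genes).

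The tricarboxylic acid cycle and pyruvate dehydrogenase, which supply the chain with NADH and succinate, had 3 of 24 tested genes higher (12.5%, beside 7.23% of all tested genes) and 1 lower (4.17%, beside 10.1%), and in 11 of 24 (45.8%, beside 15.5%) every KO library was above every WT library. Among them, Suclg1, of succinyl-CoA ligase, and Dlst, of the oxoglutarate dehydrogenase complex, rose by 0.12 ± 0.04 and 0.09 ± 0.03 on the log2 scale (adjusted p of 0.0246 and 0.0348, edgeR with Benjamini-Hochberg adjustment). Suclg1 was not called without WT1 or KO3 (adjusted p of 0.143 and 0.0802), and Dlst was called only without KO1 when 1 library was left out (0.0522 to 0.129 without each of the others). Pdk1, a kinase that inhibits pyruvate dehydrogenase, fell from 109 ± 0.588 CPM to 101 ± 0.898 CPM (−0.12 ± 0.03, adjusted p = 0.0202), and lost its call without any 1 WT library (0.0559 to 0.0774). The next list, for regulators of mitochondrial gene expression and biogenesis, had 28 tested genes, among them Usf1, Usf2 and the targeted gene Usf3. In it 0 genes were higher and 1 was lower (3.57%, beside 10.1% of all tested genes). That gene was Hif1a, of an oxygen-regulated transcription factor known to induce Pdk1. Hif1a had 305 ± 4.23 CPM in WT and 275 ± 11.5 CPM in KO (−0.15 ± 0.03, adjusted p = 0.000587, edgeR with Benjamini-Hochberg adjustment). A link between the changes of Hif1a and Pdk1 was not tested. None was called by edgeR, DESeq2 or limma-voom among 13 genes of coenzyme Q synthesis and the assembly factors of complexes II (4 genes), III (10) and V (6), of which 2, 1, 0 and 1 had an unadjusted p under 0.05. Of the 15 complex I assembly factors outside the prefix, Aifm1, listed there too, was the 1 called (6.67%). Over all tested genes edgeR called 17.3%.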

How the data were processed

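RNA-seq of splenic γδ T cells (3 WT and 3 KO libraries) was analysed from the deposited gene counts of 19390 symbols, which the authors did not normalize further. Per the labels' protocols, TRIzol was used to extract total RNA and the VAHTS Universal V6 kit to prepare libraries. The submitters' processing notes name fastp, HISAT2, HTSeq and the build GRCm39. Their versions and roles, the annotation and the strand setting were not given in the sources used here, so reads of overlapping genes cannot be told apart. The deposited FPKM equal counts divided by the column total and 1 length per gene in all 19390 genes (tolerance 0.01 bp) and were used for levels between genes and in 2 alternative fits.

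The test was edgeR's quasi-likelihood test (version 4.0.16, R 4.3.3, TMM factors 0.994 to 1.01, filterByExpr by group, glmQLFit and glmQLFTest on the label). Calls were made at an adjusted p below 0.05 (Benjamini-Hochberg, over 12810 tested genes). SE is the size of the log2 fold change divided by the root of F, intervals are 95%, and CPM use TMM-scaled library sizes. Other settings tried were scaling by RLE, upper quartile or total counts, other filters, DESeq2 1.42.0, limma 3.58.1 (voom, and trend on log2 FPKM), a replicate block, other thresholds and leaving out each library. One alternative, removing a trend on gene length, was chosen after seeing the data.

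Members, gene lists and motifs were chosen with earlier results of these data known. The genes named were Usf3, and in each complex the called members (where fewer than 2, the 2 with the smallest p) and the 2 highest and 2 lowest by WT FPKM. Over all complexes, the 3 highest and 3 lowest log2 fold changes, the genes below the filter and up to 4 called genes per list were added. Other genes named were chosen after their values were seen. A called gene of the pathway lists is not reported here.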

Additional observations from a re-analysis of the deposited data

How the results depend on the processing

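Upper-quartile scaling, total-count scaling, DESeq2 and limma-voom kept all 9 called members, and upper-quartile scaling added Atp5g1, Ndufs1 and Sdhb. The count of members higher went from 8 to 3 at an adjusted p under 0.01 and ran from 3 to 10 when 1 library was left out, with 3 without WT2. The count lower went from 1 to 2 without a low-count filter, in both limma fits of log2 FPKM, with the replicate block, at an adjusted p under 0.1 and with the length trend removed, to 0 at an adjusted p under 0.01, and ran from 0 to 2 when 1 library was left out. The cause was not tested.

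By complex, complex I went from 1 called to 2 with upper-quartile scaling, without a filter and with Ndufa4 counted in it, to 0 at an adjusted p under 0.01 and 3 under 0.1, and ran from 0 to 2 when 1 library was left out. Complex II went from 1 to 2 with upper-quartile and total-count scaling, both FPKM fits and an adjusted p under 0.1. Complex III went from 2 to 1 in both FPKM fits and with the block, to 0 at an adjusted p under 0.01, and ran from 0 to 2 with 1 library left out. Complex IV went from 1 to 2 without a filter, in both FPKM fits, with the block, at an adjusted p under 0.1 and with the length trend removed, to 0 at an adjusted p under 0.01 and with Ndufa4 counted in complex I, and ran from 0 to 2 with 1 library left out. Complex V went from 4 to 2 at an adjusted p under 0.01 and ran from 2 to 4 with 1 library left out. Other pathway genes higher went from 6 to 10 with upper-quartile scaling, total-count scaling and the length trend removed, 13 without a filter, and 3 and 11 at an adjusted p under 0.01 and 0.1. Those lower went from 5 to 2 and 8 at these thresholds, and ran from 2 to 8 with 1 library left out.

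WT and KO libraries share replicate numbers, and the deviations of same-numbered libraries correlated at 0.06, −0.02 and −0.04. Those of differently numbered libraries ran from −0.06 to 0.08, so no strong effect shared by number was seen. With 3 libraries per group, this does not settle whether the numbers pair them. With the replicate block 8 members were called, without Atp5d (adjusted p = 0.0607) and Uqcrc1 (0.0506) and with Cox7a2. No direction of a called member reversed under any alternative. Depth limits the 4 tested members under 2 CPM, whose 95% intervals in the edgeR fit reached beyond 50%.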
